A study of Homo sapiens with 6 samples.

Results

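Autophagy and lysosome genes were followed by RNA sequencing in MDA-MB-231-DR, a subline selected for resistance to doxorubicin. Its parent, MDA-MB-231, is a breast cancer line of the triple-negative class. The 47 genes were taken by symbol from 58302 genes in the deposited count table. The symbols were listed by function and by no threshold on a value, but with earlier results of these data known. They cover the machinery that builds the autophagosome and the membrane proteins, enzymes and proton pump of the lysosome. Libraries came from 3 samples of cells without cyperotundone (control) and 3 samples of cells given cyperotundone (CYT), a sesquiterpenoid. All 6 libraries came from the resistant line, which the methods keep in medium with a low dose of doxorubicin, and none came from the parental line. The dose and duration of CYT for these libraries, and whether doxorubicin was present during treatment, are not given in the sources used here. The methods speak of independent experiments for the study's data in general, and the labels do not say that these samples of a group were separate cultures. If they were not, the p-values measure only the spread between these libraries, which may be technical.

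Macroautophagy encloses cytoplasm in a growing double membrane, the phagophore, which closes into an autophagosome and fuses with the lysosome. An initiation kinase complex starts the process, a lipid kinase complex marks the site, and a conjugation machinery resembling that of ubiquitin couples ATG8-family proteins (MAP1LC3B and the GABARAP proteins) to membrane lipid. In the lysosome, acidified by the V-ATPase proton pump, cathepsins and glycosidases digest what is delivered. Many lysosomal genes carry in their promoters a CLEAR element, a palindrome around the E-box CACGTG that the transcription factors TFEB and TFE3 bind.

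The promoters are shown first because these letters are the known link between TFEB or TFE3 and lysosomal genes. RefSeq promoter windows from 250 bases before to 50 bases after the start (GRCh38.p14) were matched to 39 of the 47 genes. The E-box CACGTG stood in 8 of these 39 windows (20.5%), against 7.43% of all 27305 promoters and 10.2% of the 10513 promoters of tested genes. The longer letters TCACGTGA, which contain the E-box, stood in 5 windows (12.8%), against 1.04% of all promoters and 1.97% of those of tested genes. The letters are known from lysosomal genes and the list was chosen by function. A higher share than over all promoters may therefore be built into that choice. The related letters TCATGTGA were in none of the 39 windows and in 1.01% of all promoters. All 3 strings were searched on both strands, and CACGTG and TCACGTGA read the same on either. The stretches around the sites are printed 5′ to 3′ along the gene's own strand, with the E-box or TCACGTGA in capitals. MCOLN1 and NEU1 are shown as genes with a site whose RNA rose after CYT. CTSA, whose product stabilises the NEU1 enzyme, LAMP1, ATP6V0D1 and ATG3 are shown as carriers of the longer letters whose RNA did not pass the test.
MCOLN1, chr19:7522562-7522636, plus strand: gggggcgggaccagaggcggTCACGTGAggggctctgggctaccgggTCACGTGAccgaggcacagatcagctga
NEU1, chr6:31862922-31862967, minus strand: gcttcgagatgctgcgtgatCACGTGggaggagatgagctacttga
CTSA, chr20:45891273-45891336, plus strand: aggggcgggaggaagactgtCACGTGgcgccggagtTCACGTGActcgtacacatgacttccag
LAMP1, chr13:113297027-113297258, plus strand: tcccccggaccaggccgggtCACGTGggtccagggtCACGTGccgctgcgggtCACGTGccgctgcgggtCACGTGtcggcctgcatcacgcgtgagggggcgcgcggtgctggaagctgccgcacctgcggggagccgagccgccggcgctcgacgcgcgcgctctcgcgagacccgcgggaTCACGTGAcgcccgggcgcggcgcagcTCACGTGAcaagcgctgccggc
ATP6V0D1, chr16:67481190-67481237, minus strand: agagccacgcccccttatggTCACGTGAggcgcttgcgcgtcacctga
ATG3, chr3:112561943-112562000, minus strand: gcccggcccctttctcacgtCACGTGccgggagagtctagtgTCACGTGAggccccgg
The LAMP1 window held 6 E-boxes, of which 2 lay within TCACGTGA, and the MCOLN1 window held 2 copies of TCACGTGA. ATG14 and CTSD had an E-box without the longer letters.

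Raw counts per gene were compared between CYT and control with edgeR's quasi-likelihood test over 15572 genes, and a gene was called at a Benjamini-Hochberg adjusted p under 0.05. Levels are given as CPM (counts relative to library size after TMM normalization) for replicates 1, 2 and 3 in that order, and fold changes are log2 values of CYT against control with their standard error (SE). Each control library held 14050849 to 17770102 counts and each CYT library 13056270 to 14106017. The mesenchymal markers VIM, CD44, CAV1 and AXL were at 65.3 CPM or more in each library, and SPARC was at 6.91 to 24.5 CPM. ESR1 had at most 4 counts and PGR at most 3, whereas ERBB2 ran from 16.8 to 82.3 CPM. The epithelial markers EPCAM and CDH1 had at most 12 and 16 counts, the leukocyte marker PTPRC at most 7, and the endothelial marker PECAM1 at most 35. The fibroblast gene COL1A1 was at 2.78 to 19.6 CPM. Several of these markers were lower after CYT. Mean CPM in control and CYT was 2460 and 996 for VIM, 818 and 464 for AXL, 23.1 and 8.26 for SPARC and 15 and 3.36 for COL1A1, each past the test in edgeR (adjusted p = 0.00535, 0.0444, 0.00645 and 0.00264). CAV1 (250 and 123 CPM) and CD44 (139 and 122 CPM) did not pass (edgeR adjusted p = 0.0826 and 0.639). MT-RNR1 and MT-RNR2 together held 0.148% to 0.221% of counts in control and 1.56% to 1.74% in CYT libraries. Antisense and lincRNA genes held 0.461% to 0.54% in control and 0.938% to 1.01% in CYT. The part of these markers and RNA-quality measures in the results below was not tested. CYT replicate 2 stood apart from the other CYT libraries, with correlations of 0.905 and 0.904 against 0.953 to 0.971 for the other pairs within a group.

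Of the 47 genes, 46 passed the filter on low counts. ULK2, a kinase related to ULK1, had 0 counts in each control library and 1, 8 and 3 counts in CYT, and was not tested. Of the 46 tested genes, 10 rose after CYT (21.7%), against 15.7% of all tested genes, and 2 fell (4.35%), against 12.9%. The excess of risers over that background was lost when any library but CYT replicate 2 was left out, with 8.7% to 10.9% of these genes higher against 10.3% to 13.1% of all genes. The share that fell was under that of all genes with each library left out, but not with no filter on low counts (8.51% against 6.81%). The other 34 did not pass, although 24 of the 46 had an unadjusted p under 0.05. The median log2 fold change was 0.64 over the 46 genes and 0.0064 over all tested genes. The gap of 0.63 narrowed to 0.17 with no filter on low counts, where the median of all genes was 0.41, and to 0.37 without control replicate 2. The log2 fold change was above 0 for 33 of the 46 genes and below 0 for 13. In 18 tested genes (39.1%) each CYT library lay above each control library, against 23.4% of all tested genes. In 6 tested genes (13%) each CYT library lay below, against 22.7% of all tested genes, and in 22 the groups overlapped. Of the 47 genes, 22 shared exonic bases with another annotated gene, and 6 of the 12 called genes were among them. Together the genes took 0.501% to 0.585% of the counts in control and 0.868% to 0.979% in CYT libraries, and PSAP alone made up 26.5% of their summed CPM. In bulk RNA, a change in RNA per cell and a change in the share of cells that carry it cannot be told apart.

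The plot of log2 fold changes by role gives each step of the pathway in turn. The 4 initiation, 3 lysosomal membrane and 9 hydrolase and activator genes had median log2 fold changes of 1.02, 1.10 and 0.76. The median was 0.69 over the 8 genes of the lipid kinase and lipid transfer steps and -0.66 over the 8 conjugation genes. It was 0.56, 0.32 and -0.23 over the 4 ATG8-family, 3 cargo receptor and 2 transcription factor genes, and 0.04 over the 5 V-ATPase genes. Over all tested genes it was 0.0064. Groups of 2 to 9 genes are too small to set a step apart from all tested genes, and none was tested as a group.

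**Figure D1:**
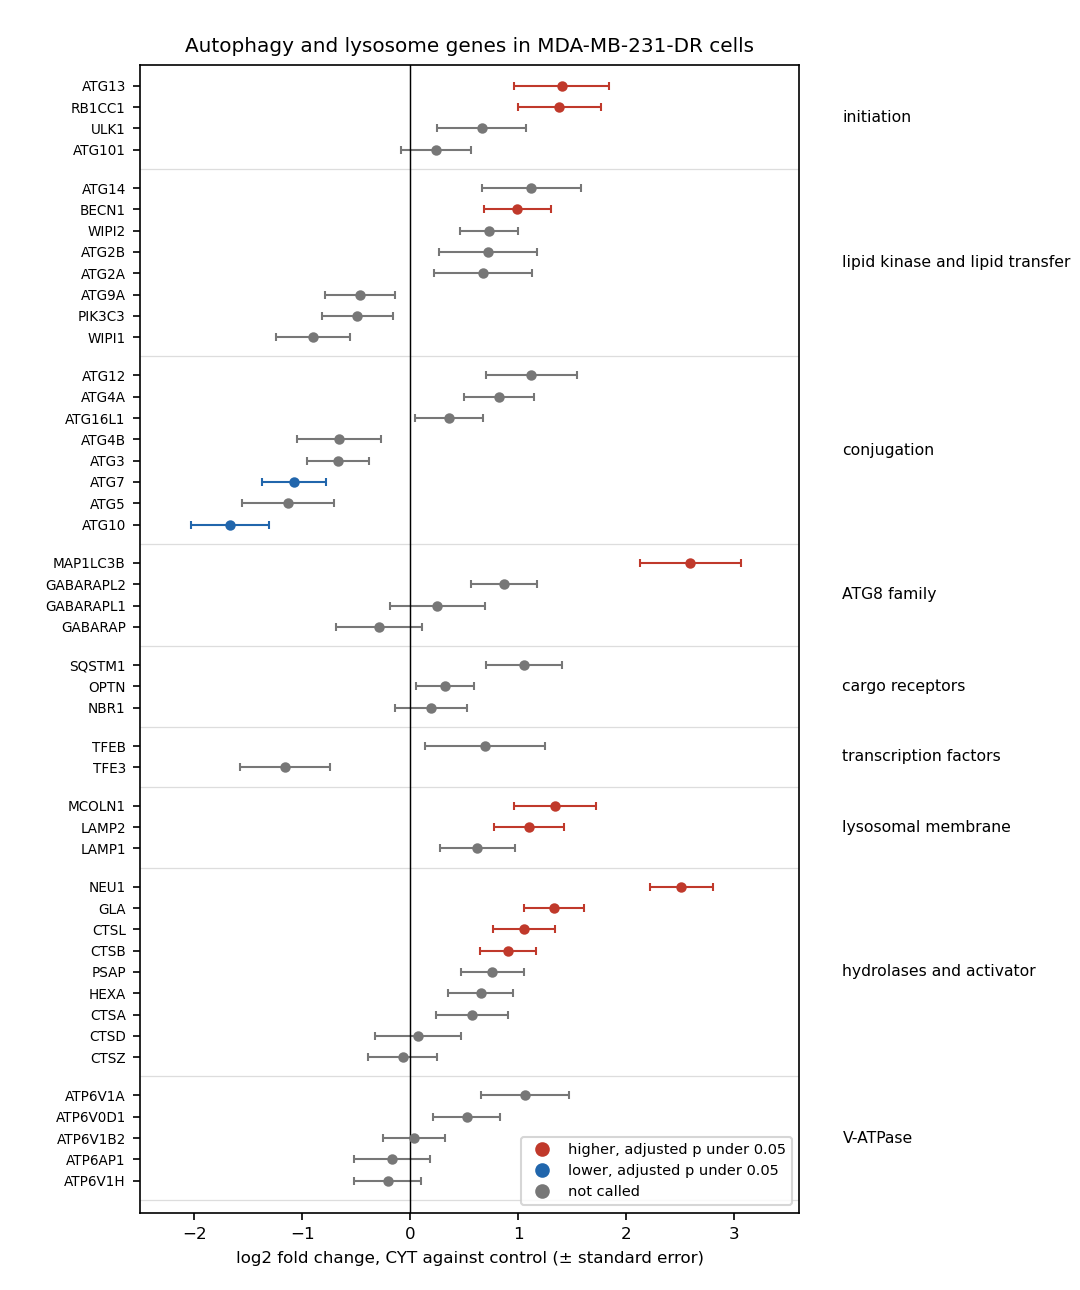
Log2 fold change of CYT against control for the 46 tested genes, grouped by role on the vertical axis, with bars of 1 standard error from edgeR. Red marks the 10 genes that rose, blue the 2 that fell (ATG7 and ATG10) and grey those that did not pass at an adjusted p of 0.05.

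Of the 4 tested genes of the initiation complex, RB1CC1 and ATG13 rose (50%, against 15.7% of all tested genes). ULK1 and ATG101 did not pass. RB1CC1, which encodes the scaffold FIP200 on which the ULK complex assembles, was at 15.6, 25.8 and 16.6 CPM in control and at 33.7, 75.1 and 42.7 CPM in CYT. Replicate 2 was the highest library in both groups, and the groups did not overlap. RB1CC1 rose by 1.38 on the log2 scale (SE 0.385, n = 3 per group, edgeR adjusted p = 0.0247). The call was lost without control replicate 1 (adjusted p = 0.0994) or control replicate 3 (0.105). It was also lost with limma on log2(FPKM + 1), a measure scaled to gene length (limma adjusted p = 0.0549). ATG13, the adaptor that binds ULK1 to that scaffold, was at 118, 54.7 and 109 CPM in control and at 297, 121 and 322 CPM in CYT. Replicate 2 was here the lowest of both groups, and CYT replicate 2 at 121 CPM lay just above control replicate 1. ATG13 rose by 1.40 on the log2 scale (SE 0.439, edgeR adjusted p = 0.0393), and leaving out any library but CYT replicate 2 lost the call, with adjusted p from 0.0693 to 0.117. Without CYT replicate 2 it was 0.00402. ATG13 overlaps HARBI1 on the opposite strand by 329 exonic bases. HARBI1 rose as well (log2 fold change 1.33, edgeR adjusted p = 0.0157), with 56 to 64 counts in control and 117 to 147 in CYT, and whether the counting used the strand is not given in the sources used here. ULK1, the kinase itself, averaged 41.5 ± 10.2 CPM in control and 65.4 ± 30.0 CPM in CYT (SD, n = 3). ULK1 had a log2 fold change of 0.66 (edgeR adjusted p = 0.261). It passed without CYT replicate 2 (0.99, edgeR adjusted p = 0.0178) and after a correction for GC content and length (1.17, edgeR adjusted p = 0.000752). ATG101, a partner that stabilises ATG13, averaged 81.4 ± 7.85 and 96.1 ± 30.7 CPM. The groups overlapped for both.

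In the lipid kinase complex and the lipid transfer steps that follow it, 1 of 8 genes rose (12.5%) and none fell. Of all tested genes, 15.7% rose and 12.9% fell. The riser was BECN1, which encodes Beclin 1, the regulatory subunit of the complex that makes phosphatidylinositol 3-phosphate. BECN1 was at 48.2, 58.1 and 50.5 CPM in control and at 91.3, 139 and 81.2 CPM in CYT. The control libraries lay close together and CYT replicate 2 was the highest, with no overlap. On the log2 scale BECN1 rose by 0.99 (SE 0.310, edgeR adjusted p = 0.0390). The call was kept without CYT replicate 2 (0.0436) or CYT replicate 3 (0.0484) and lost without any one of the other 4 libraries, with adjusted p from 0.0733 to 0.139. It was also lost with no filter on low counts (edgeR adjusted p = 0.0764). Limma on log2(FPKM + 1) or log2(FPKM + 0.1) lost it too (limma adjusted p = 0.0688 and 0.0638). BECN1 shares exonic bases with 2 genes on the opposite strand, 795 with CNTD1 and 300 with the proteasome activator gene PSME3. CNTD1 had 13 to 51 counts in control and 5 to 64 in CYT (log2 fold change 0.57, edgeR adjusted p = 0.598). PSME3 went the other way, from 5073 to 6365 counts in control to 1024 to 1183 in CYT (log2 fold change -2.17, edgeR adjusted p = 0.000892).

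ATG14, which directs this complex to autophagy, was at 6.88, 23.1 and 22.6 CPM in control and at 31.7, 49.8 and 33.0 CPM in CYT. Control replicate 1 was the lowest library, and the groups did not overlap. The ATG14 log2 fold change of 1.12 (SE 0.458) did not pass in edgeR (adjusted p = 0.0946), and passed with the replicate number as a block (0.0162). Without control replicate 1 it was 0.72 (adjusted p = 0.218). PIK3C3, the catalytic subunit VPS34, averaged 28.4 ± 2.14 CPM in control and 20.2 ± 6.97 CPM in CYT (SD, n = 3), and its groups overlapped. WIPI2 and WIPI1 encode proteins that read the lipid this complex makes. WIPI2 averaged 88.0 ± 6.24 and 146 ± 15 CPM and WIPI1 38.6 ± 8.47 and 20.7 ± 6.88 CPM, in opposite directions and without overlap. Neither passed in edgeR (adjusted p = 0.0665 and 0.0778), and both did with the block (0.0348 and 0.0213). The lipid transfer genes ATG2A and ATG2B and the scramblase gene ATG9A had log2 fold changes of 0.67, 0.72 and -0.47, with overlapping groups. Without CYT replicate 2 these were 1.05, 0.32 and -0.26, and ATG2B was at 1.22 without control replicate 2. ATG2A passed without CYT replicate 2 (edgeR adjusted p = 0.0188) and after a correction for GC content and length (1.14, edgeR adjusted p = 0.00292). ATG2B and ATG9A passed in neither.

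Of the 8 conjugation genes, 2 fell (25%, against 12.9% of all tested genes) and none rose (against 15.7%). ATG7 encodes the activating enzyme shared by both conjugation routes, and ATG10 the enzyme that passes ATG12 on to ATG5. ATG7 was at 47.1, 40.6 and 39.8 CPM in control and at 24.2, 20.2 and 15.8 CPM in CYT. The groups lay well apart, with a log2 fold change of -1.08 (SE 0.296, edgeR adjusted p = 0.0231). That call was lost without control replicate 1 (0.0790), control replicate 3 (0.0654) or CYT replicate 3 (0.0956). ATG7 shares 1596 exonic bases with VGLL4 on the opposite strand, which had a log2 fold change of -0.22 (edgeR adjusted p = 0.569). ATG10 (ENSG00000152348, chr5:81972025-82276857, hg38) was at 6.88, 8.36 and 6.97 CPM in control and at 2.26, 2.70 and 1.99 CPM in CYT. Each CYT library was below each control library, and at a mean of 0.614 FPKM (fragments scaled to gene length and library size) over the 6 libraries ATG10 had the lowest level per length of the 46 genes. It fell by 1.67 on the log2 scale (SE 0.358, edgeR adjusted p = 0.00783), and passed with any one library left out. ATG10 overlaps the ribosomal protein gene RPS23 on the opposite strand by 374 exonic bases. RPS23 had 10384 to 14488 counts in control and 5177 to 9158 in CYT (log2 fold change -0.62, edgeR adjusted p = 0.159). The part of RPS23 reads in the ATG10 counts was not tested.

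ATG12 and ATG5, whose products are joined to each other, had log2 fold changes of opposite sign. ATG12 was at 39.2, 62.1 and 39.4 CPM in control and at 66.6, 169 and 71.0 CPM in CYT. Each CYT library was above each control library, and replicate 2 was the highest of both groups. Its log2 fold change was 1.12 (SE 0.419, edgeR adjusted p = 0.0719, and 0.0127 with the block), and 0.54 without CYT replicate 2. ATG5 was at 32.5, 59.3 and 33.7 CPM in control and at 14.2, 30.6 and 12.3 CPM in CYT. Each CYT library was below each control library, and replicate 2 was again the highest of both groups. Its log2 fold change was -1.13 (SE 0.426, edgeR adjusted p = 0.0736, and 0.00529 with the block). ATG16L1, the partner that brings this conjugate to the membrane, averaged 23.8 ± 6.15 CPM in control and 30.6 ± 3.69 CPM in CYT (SD, n = 3). ATG3, which passes ATG8 proteins to the lipid, averaged 35.8 ± 5.59 and 22.5 ± 2.48 CPM without overlap (edgeR adjusted p = 0.111). The proteases ATG4A and ATG4B, which trim ATG8 precursors, had log2 fold changes of 0.82 and -0.66, neither past the test. ATG4B was at -0.37 without control replicate 1 and at -0.18 after a correction for GC content and length.

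The ATG8 family had 1 riser among its 4 genes (25%, against 15.7% of all tested genes). MAP1LC3B (ENSG00000140941, chr16:87383995-87404779, hg38) encodes LC3B, a protein widely used to mark autophagosomes, and was at 65.8, 191 and 78.9 CPM in control and at 554, 949 and 515 CPM in CYT. Replicate 2 was the highest library of both groups, and the lowest CYT library was above the highest control library. With a mean of 6.0-fold and a log2 fold change of 2.59 (SE 0.467, edgeR adjusted p = 0.00371), it had the largest rise among the 46 genes with all libraries, and it passed with any one library left out. NEU1 had the larger log2 fold change without control replicate 1 (2.70 against 2.30), control replicate 3 (2.41 against 2.36) or CYT replicate 2 (2.53 against 2.24). Without control replicate 2, the highest control library, the log2 fold change was 3.19, and over the other libraries left out in turn it was 2.24 to 2.75. MAP1LC3B has a near copy, MAP1LC3B2, with 339, 609 and 458 counts in control and 1486, 1293 and 1372 in CYT. The copy rose too (log2 fold change 1.82, edgeR adjusted p = 0.00274), and how reads matching both genes were assigned is not given in the sources used here. MAP1LC3B also overlaps FBXO31 on the opposite strand by 150 exonic bases, and FBXO31 had a log2 fold change of 0.14 (edgeR adjusted p = 0.783).

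The 3 GABARAP genes, the other branch of the family, did not pass. GABARAPL2 averaged 64.3 ± 12.3 CPM in control and 118 ± 28.4 CPM in CYT (SD, n = 3) without overlap. Its log2 fold change was 0.87 (edgeR adjusted p = 0.0589, and 0.0176 with the block). GABARAP averaged 146 ± 58.0 and 119 ± 47.4 CPM, and GABARAPL1 19.6 ± 8.39 and 23.4 ± 11.9 CPM, and both overlapped between groups. Per length, MAP1LC3B averaged 15.3 ± 10.4 FPKM in control and 92.4 ± 39.3 FPKM in CYT. GABARAP, at 34.3 ± 11.8 FPKM, had the highest mean of the 4 in control, and in CYT averaged 28.6 ± 9.54 FPKM. A change of order within the family was not tested.

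**Figure D2:**
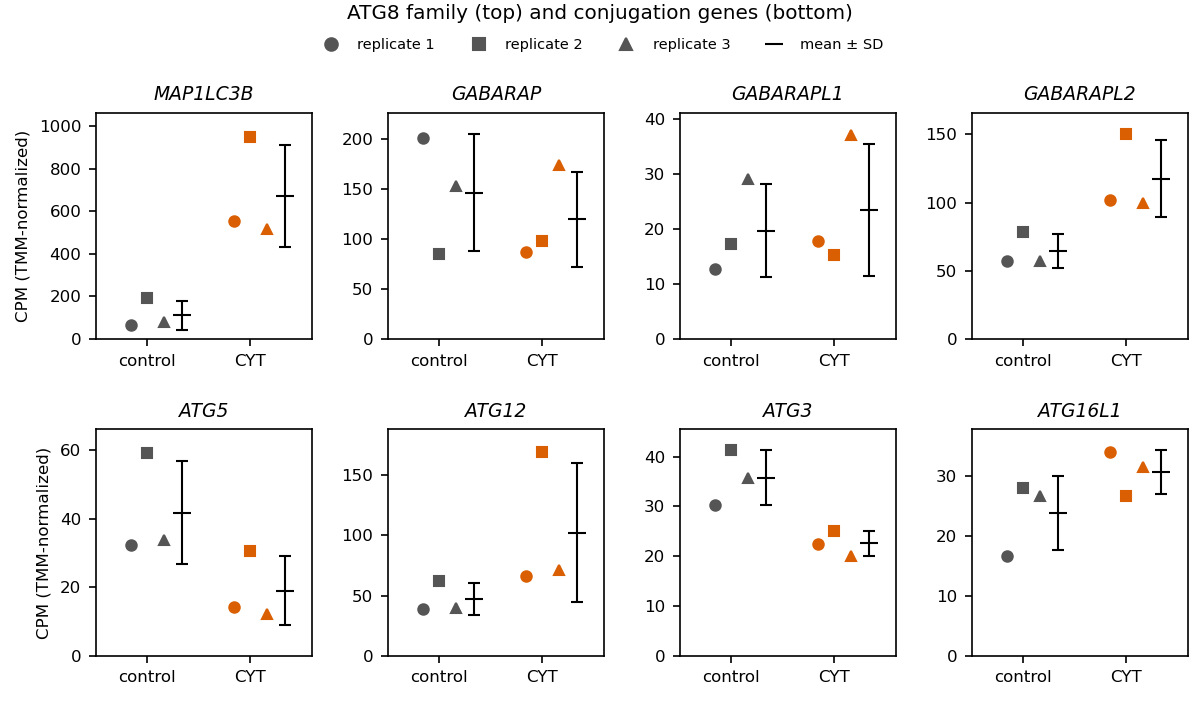
CPM (TMM-normalized, linear axes from 0) of each library for the ATG8 family (upper row) and for ATG5, ATG12, ATG3 and ATG16L1 (lower row), with replicates by marker shape and mean ± SD beside them. The 3 MAP1LC3B libraries after CYT sit between 515 and 949 CPM, above control at 65.8 to 191 CPM, and those of ATG5 sit between 12.3 and 30.6 CPM, below control at 32.5 to 59.3 CPM.

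The 3 cargo receptors, which tie ubiquitin-marked cargo to ATG8 proteins, did not pass. SQSTM1, which encodes p62, was at 1020, 451 and 827 CPM in control and at 1680, 1190 and 1890 CPM in CYT. Replicate 2 was the lowest of both groups, and each CYT library was above each control library. The log2 fold change was 1.05 (SE 0.354, edgeR adjusted p = 0.0512, and 0.0109 with the block), and the gene passed without control replicate 1 (0.0484) or CYT replicate 2 (0.0210). NBR1 and OPTN averaged 135 ± 11.5 and 56.9 ± 3.31 CPM in control and 154 ± 61.8 and 71.1 ± 8.70 CPM in CYT (SD, n = 3).

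Neither of the transcription factor genes passed. TFEB, at 10.2 ± 5.35 CPM in control and 16.5 ± 8.74 CPM in CYT (SD, n = 3), overlapped between groups. TFE3 was at 70.4, 36.4 and 58.2 CPM in control and at 29.6, 12.5 and 31.7 CPM in CYT. Each CYT library was below each control library, and replicate 2 was the lowest of both. The log2 fold change was -1.16 (SE 0.417, edgeR adjusted p = 0.0636, and 0.00532 with the block). RNA level says nothing of where these proteins are in the cell.

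Of the 3 genes of lysosomal membrane proteins, MCOLN1 and LAMP2 rose (66.7%, against 15.7% of all tested genes). MCOLN1, the lysosomal calcium channel whose promoter sites are printed above, was at 49.2, 25.8 and 42.2 CPM in control and at 111, 60.3 and 126 CPM in CYT. Replicate 2 was the lowest of both groups, and the groups did not overlap. MCOLN1 rose by 1.34 on the log2 scale (SE 0.380, edgeR adjusted p = 0.0264). The call was kept only without CYT replicate 2 (0.00362), and without any other library adjusted p was from 0.0503 to 0.0882. MCOLN1 overlaps AC008878.2 on the same strand by 169 exonic bases, a gene with at most 13 counts in any library, and PNPLA6 on the same strand by 6 (PNPLA6 log2 fold change -1.15, edgeR adjusted p = 0.0562). LAMP2, a membrane glycoprotein needed for fusion and for chaperone-mediated autophagy, was at 76.6, 119 and 75.5 CPM in control and at 158, 250 and 172 CPM in CYT. Replicate 2 was the highest of both groups, and the groups did not overlap. LAMP2 rose by 1.10 on the log2 scale (SE 0.324, edgeR adjusted p = 0.0311). The call was kept without control replicate 2 (0.0297) or CYT replicate 2 (0.0415), and without any other library adjusted p was from 0.0525 to 0.135. With no filter on low counts the call was lost as well (edgeR adjusted p = 0.0505). LAMP1, the related glycoprotein, averaged 122 ± 34.5 CPM in control and 187 ± 57.4 CPM in CYT (SD, n = 3) with overlapping groups.

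Among the 9 genes of lysosomal enzymes and their activator, 4 rose (44.4%, against 15.7% of all tested genes) and none fell (against 12.9%). NEU1 (ENSG00000204386, chr6:31857659-31862906, hg38), the lysosomal sialidase, was at 63.5, 42.8 and 44.3 CPM in control and at 285, 281 and 294 CPM in CYT. The CYT libraries were almost level with each other, and the groups were far apart. NEU1 rose by 2.51 on the log2 scale (SE 0.296, edgeR adjusted p = 0.000748), the smallest adjusted p of the 46 genes. GLA (ENSG00000102393, chrX:101397803-101407925, hg38), the alpha-galactosidase deficient in Fabry disease, was at 40.1, 38.8 and 48.3 CPM in control and at 111, 114 and 95.7 CPM in CYT. Here too the groups lay apart, with a log2 fold change of 1.33 (SE 0.278, edgeR adjusted p = 0.00692). Both genes passed with any one library left out.

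The cathepsins, proteases of the lysosome, divided into 2 that rose and 3 that did not pass. CTSL was at 70.2, 60.4 and 92.2 CPM in control and at 155, 147 and 158 CPM in CYT, without overlap. CTSL rose by 1.05 on the log2 scale (SE 0.286, edgeR adjusted p = 0.0226). The call was kept without control replicate 3 (0.0484) or CYT replicate 2 (0.0119), and without any other library adjusted p was from 0.0640 to 0.0874. CTSB was at 217, 181 and 193 CPM in control and at 336, 384 and 379 CPM in CYT, and the groups did not overlap. CTSB rose by 0.90 on the log2 scale (SE 0.259, edgeR adjusted p = 0.0284). With 1 library left out, that call was kept only without CYT replicate 2 (0.0189), and without any other library adjusted p was from 0.0678 to 0.115. With no filter on low counts the call was lost as well (edgeR adjusted p = 0.0845). CTSZ was at 130, 85.8 and 130 CPM in control and at 119, 78.1 and 132 CPM in CYT. Its groups covered the same range (log2 fold change -0.071, SE 0.321, edgeR adjusted p = 0.891, and 0.080 on the log2 scale with upper-quartile normalization). CTSD, an aspartic protease, averaged 219 ± 69.9 and 230 ± 100 CPM (SD, n = 3). CTSA, the carboxypeptidase partner of NEU1, averaged 82.4 ± 20.9 and 123 ± 31.7 CPM, a log2 fold change of 0.57 (edgeR adjusted p = 0.222). For CTSA this was 0.37 without control replicate 2. It was 0.99 after a correction for GC content and length, and passed there (edgeR adjusted p = 0.00248).

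PSAP encodes prosaposin, the precursor of the activators that present lipids to lysosomal glycosidases. It was at 1660, 1380 and 1300 CPM in control and at 2430, 1810 and 3140 CPM in CYT. Each CYT library was above each control library, with a log2 fold change of 0.76 (SE 0.290, edgeR adjusted p = 0.0759). HEXA, the alpha subunit of beta-hexosaminidase, averaged 106 ± 14.8 CPM in control and 167 ± 39.2 CPM in CYT (SD, n = 3). CYT replicate 1 of HEXA, at 123 CPM, was level with control replicate 1.

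None of the 5 V-ATPase genes passed, and their groups overlapped. ATP6V1A, the catalytic subunit, was at 28.8, 48.0 and 31.3 CPM in control and at 60.4, 119 and 46.6 CPM in CYT. CYT replicate 3 lay below control replicate 2, which was the highest control library, as replicate 2 was among the CYT libraries. For ATP6V1A the log2 fold change was 1.06 (SE 0.405, edgeR adjusted p = 0.0772, and 0.0146 with the block), and 0.56 without CYT replicate 2. ATP6V1B2, the other subunit of the catalytic head, averaged 72.5 ± 8.78 and 74.4 ± 13.6 CPM (SD, n = 3). ATP6V0D1 of the membrane sector, the regulatory subunit ATP6V1H and the accessory subunit ATP6AP1 had log2 fold changes of 0.52, -0.21 and -0.17. ATP6V0D1 was at 0.29 without CYT replicate 1, and at 0.93 after a correction for GC content and length, where it passed (edgeR adjusted p = 0.00542). ATP6V1H ran from -0.45 without CYT replicate 2 to -0.03 without CYT replicate 3.

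**Figure D3:**
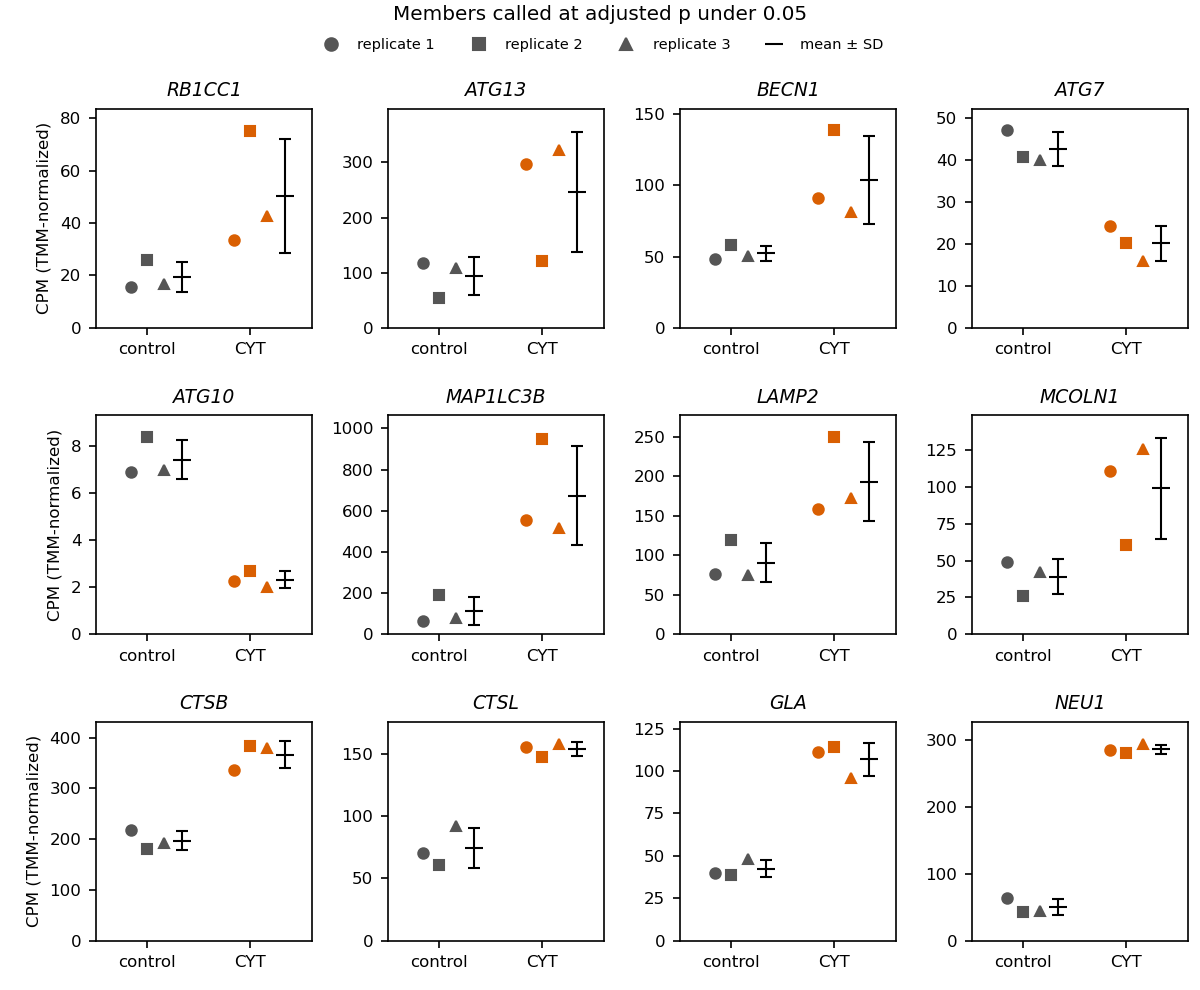
CPM (TMM-normalized, linear axes from 0) of each library for the 12 genes that passed at an adjusted p of 0.05, with replicates by marker shape and mean ± SD beside them. The groups do not overlap in any panel, and replicate 2 lies above both other libraries of each group for RB1CC1, BECN1, ATG10, MAP1LC3B and LAMP2 and below them for ATG13, MCOLN1, CTSL and NEU1.

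Levels between genes were compared per length, in FPKM. Over the 6 libraries PSAP averaged 354 FPKM, SQSTM1 83.3, MAP1LC3B 53.8, CTSZ 37.3 and GABARAP 31.5 FPKM. The median over the tested genes was 5.98 FPKM in control and 8.99 FPKM in CYT. NEU1 averaged 5.63 ± 0.957 FPKM in control, near that median, and 32.9 ± 1.55 FPKM in CYT (SD, n = 3), close to CTSZ at 36.6 ± 7.32 FPKM. ATG7 averaged 3.50 ± 0.190 and 1.69 ± 0.409 FPKM.

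**Figure D4:**
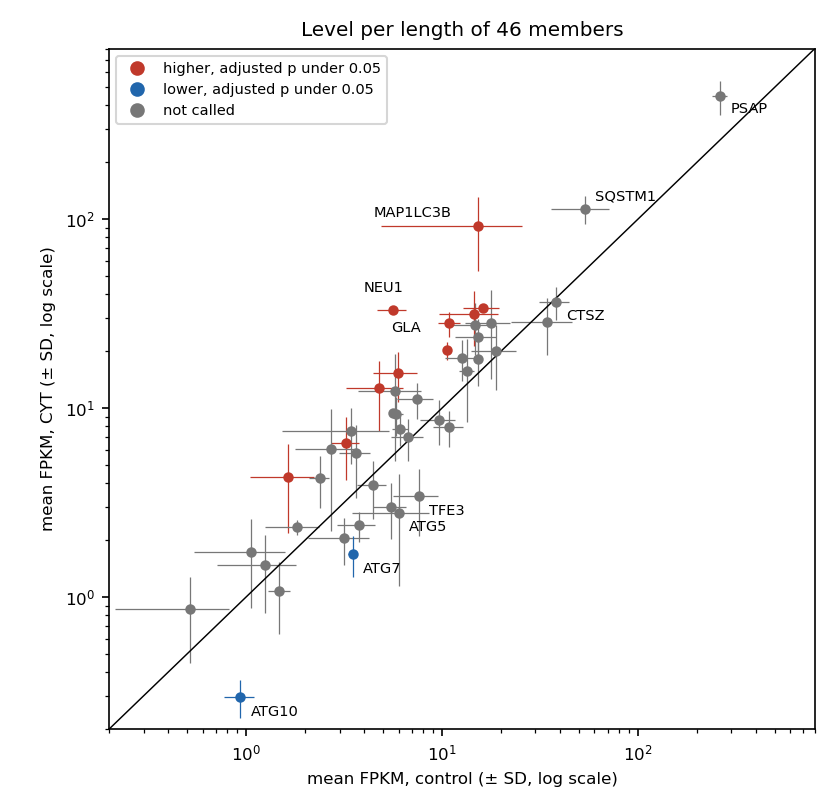
Mean FPKM in control (horizontal, log scale) and after CYT (vertical, log scale) of the 46 tested genes, with bars of 1 SD (n = 3) and a diagonal of equal level. MAP1LC3B and NEU1 lie farthest above the diagonal and ATG10 farthest below, while CTSZ lies near it.

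The position of replicate 2 within its group went with the GC content of the transcript. The tested genes of the whole table were divided by GC content into 3 classes of like size. In the class above 53.7% GC, replicate 2 was the lowest library of both groups for 15 of 16 autophagy and lysosome genes, SQSTM1, TFE3 and MCOLN1 among them, and PSAP was the exception. In the class up to 44.2% GC it was the highest of both groups for 10 of 12, LAMP2, RB1CC1, ATG5 and ATG12 among them, and PIK3C3 and ATG4A were the exceptions. In the class between, it was lowest in both for 5 and highest in both for 4 of 18 genes. The median deviation of replicate 2 from the mean of replicates 1 and 3 was 0.56 (control) and 0.68 (CYT) on the log2 scale in the low class, and -0.62 and -0.78 in the high class. Without CYT replicate 2, 19 of the 46 genes passed (16 higher and 3 lower), while 18.6% of all tested genes were higher and 17% lower. Without any other single library 5 to 7 passed (4 or 5 higher and 1 or 2 lower), and the higher share was under that of all tested genes in each of these 5 fits. With the replicate number as a block, 21 passed, against 39.9% of all tested genes. Of these, 16 were higher, against 20% of all tested genes, and 5 lower, against 19.8%. The block added ATG14, WIPI2, ATG12, GABARAPL2, SQSTM1 and ATP6V1A as higher and WIPI1, ATG5 and TFE3 as lower, and lost none of the 12. After correcting for GC content and length, 27 passed (22 higher and 5 lower), while 23.5% of all tested genes were higher and 22.5% lower. Call counts thus moved over the whole table too. The median log2 fold change of the autophagy and lysosome genes was 0.77, 0.64 and 0.55 in the low, middle and high GC classes, beside 0.11, 0.036 and -0.16 for all tested genes of each class. Each gene was also compared within same-numbered libraries, and 24 of the 46 (52.2%) were higher after CYT in 3 of 3 pairs, against 32.8% of all tested genes, and 10 (21.7%) were lower in all 3, against 33.6%.

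**Figure D5:**
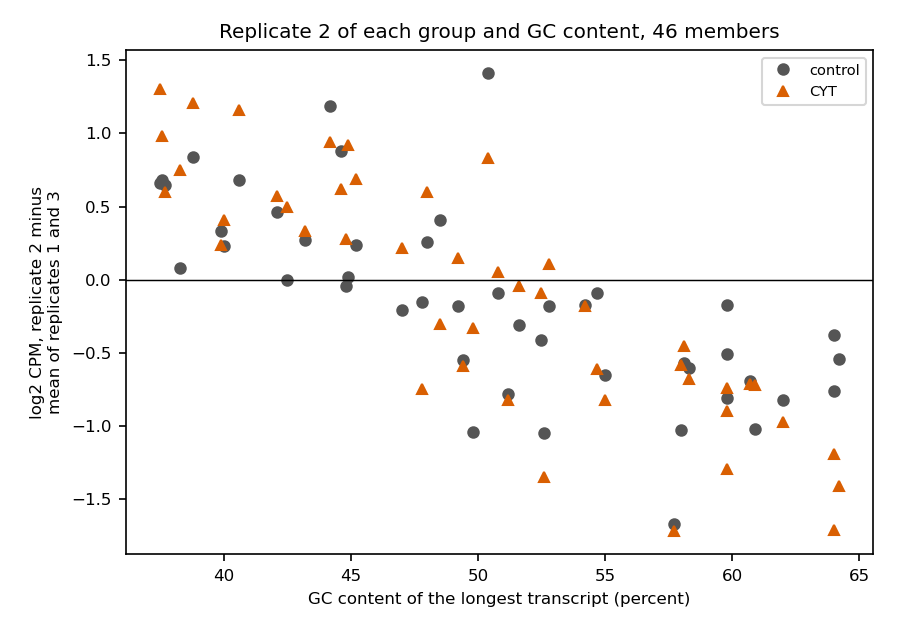
Log2 CPM of replicate 2 minus the mean of replicates 1 and 3 (vertical) against the GC content in percent of the longest transcript (horizontal), for the 46 tested genes in control (circles) and CYT (triangles). In both groups the points run from above 0 at low GC to below 0 at high GC.

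Set beside the promoter letters, the 8 genes with an E-box held 2 that rose (MCOLN1 and NEU1) and none that fell, with a median log2 fold change of 0.60. The rest of the 39 genes with a matched window had no E-box and held 5 that rose and 2 that fell, with a median of 0.34. RB1CC1, LAMP2 and CTSB, which also rose, had no matched window and are in neither group. Of all tested genes 15.7% rose and 12.9% fell, and counts this small do not set the genes with an E-box apart from that background. Over all tested genes the median was -0.10 with an E-box and -0.05 without. MAP1LC3B and GLA, both risers, were not among the 8 genes. A match is a description of the letters, and binding was not measured.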

How the data were processed

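RNA of 3 control and 3 CYT samples was sequenced. The authors deposited raw counts per gene, from clean reads aligned with Hisat2, and FPKM values made with Stringtie. The submitters' processing notes name the hg38 build and FastQC 0.12.1, and the counting program and annotation are not given in the sources used here. Groups came from the sample labels.

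Counts were tested with edgeR 4.0.16 in R 4.3.3 (TMM, filterByExpr with a minimum count of 10, quasi-likelihood test, Benjamini-Hochberg adjustment over 15572 genes). The standard error was the absolute log2 fold change over the root of F. The biological coefficient of variation was 37.5%, and 3 against 3 libraries cannot go below p = 0.1 in an exact permutation test, so none is given. The gene list, its roles and a wider list were chosen with earlier results of these data known. Values per library are given for each gene called, for each uncalled gene with an absolute log2 fold change of 1 or more, and for the 3 uncalled genes with the highest mean FPKM. Of the wider list, the 4 largest rises and 4 largest falls among called genes at a mean of at least 5 CPM are named. Overlaps, near copies and the GC content of the longest transcript were read from GENCODE release 29 (45 of the 47 genes at the same locus), and promoters from RefSeq. Protein sequences were not used here.

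The alternatives were upper-quartile normalization, DESeq2 1.42.0, limma 3.58.1 on log2(FPKM + 1) or log2(FPKM + 0.1), omitting the filter or requiring at least 5 CPM on average, a replicate block, a GC and length correction with and without the block, and leaving out each library. Deviations from the group mean correlated between libraries of the same number (0.188, 0.458 and 0.124), all above the limit of 0.1 set for pairing, so the numbers were read as pairs. That reading rests on the label numbers and this check alone. Replicate 1 of control correlated more with replicate 3 of CYT (0.303), and replicate 3 of control more with replicate 1 of CYT (0.201), than either did with its own number. Tested on counts simulated for the 15572 genes with 200 changed by a log2 fold change of 2, edgeR recovered 133 with 11.3% false calls, edgeR with the block 134 with 18.3%, and DESeq2 162 with 19.8%, against a nominal 5%. These counts were drawn independently for each library, with no replicate or GC effect, and far fewer genes were changed than the 4451 called here. The false shares may therefore differ among the calls above, and they cannot judge the block in these libraries.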

Additional observations from a re-analysis of the deposited data

How the results depend on the processing

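The calls of MAP1LC3B, NEU1, GLA and ATG10 held in each of the alternatives that gave a value (ATG10 was not tested at a mean of at least 5 CPM), and each of the other 8 called genes lost its call in at least 1, where the cause was not tested. The 12 calls (10 higher, 2 lower) became 22 with DESeq2 (18 and 4), 21 with the replicate block (16 and 5), 27 with the GC and length correction (22 and 5), 31 with that correction and the replicate block (25 and 6), 11 with no filter (7 and 4, or 14.9% and 8.51% against 9.2% and 6.81% of all genes) and 14 at a mean of at least 5 CPM (13 and 1). Upper-quartile normalization gave 17 (15 and 2) and moved the median of all genes to 0.16 and that of the 46 genes to 0.79, a difference of 0.63 as before. That difference was smallest with no filter, 0.17 (0.58 against 0.41 over 32060 genes), and 0.37 without control replicate 2, and ran from 0.42 to 0.75 in the other alternatives. Leaving out 1 library gave 5 to 19 calls (4 to 16 higher, 1 to 3 lower) and a median of 0.44 to 0.70. Except without CYT replicate 2 (34.8% against 18.6%), the higher share then lay under that of all genes (8.7% to 10.9% against 10.3% to 13.1%). Over all genes, calls went from 4451 to 5282 with DESeq2 (18.8% higher and 15.1% lower), 7155 with the GC and length correction (3499 lower), 7035 with that correction and the block (3457 lower), 2859 at a mean of at least 5 CPM (1464 higher), 3089 lower with the block, and 2891 to 5752 with 1 library left out (1683 to 3002 higher, 1208 to 2750 lower). The wider list went from 34 calls to 68 (54 and 14) and 68 (53 and 15) with the correction without and with the block, 56 with the block (14 lower), 10 lower with DESeq2, 9 lower with no filter, and 14 to 46 (9 to 34 higher, 3 to 12 lower) with 1 library left out. Signs reversed only in genes that did not pass: CTSZ to 0.080 with upper-quartile normalization, 0.031 at a mean of at least 5 CPM and -0.26 to 0.12 with 1 library left out, and ATP6V1B2 to -0.043 with no filter. With 1 library left out, ATP6V1B2 ran from -0.12 to 0.16, GABARAPL1 from -0.23 to 0.62, CTSD from -0.22 to 0.37, NBR1 from -0.19 to 0.41 and ATP6AP1 from -0.39 to 0.057.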

Other observations

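A wider list of 129 other genes of autophagy and the lysosome held 125 tested genes, of which 28 rose (22.4%, against 15.7% of all tested genes) and 6 fell (4.8%, against 12.9%) in edgeR's quasi-likelihood test at an adjusted p under 0.05. The excess of risers was lost without control replicate 1 (9 higher, 7.2% against 10.9%) or control replicate 3 (11 higher, 8.8% against 10.3%), and was 14.4% against 12.2% to 13.1% without control replicate 2, CYT replicate 1 or CYT replicate 3. Of 31 further lysosomal hydrolases, 11 rose (35.5%, against 15.7% of all tested genes) and none fell (against 12.9%). Their median log2 fold change was 0.71. The losses with a library left out are given for the whole list and not for this group. CTSV, a cathepsin close to CTSL, was at 3.6, 3.99 and 5.39 CPM in control and at 30.3, 51.9 and 25.7 CPM in CYT (log2 fold change 3.06, edgeR adjusted p = 0.00102). FUCA1, the lysosomal alpha-fucosidase, was at 18, 16.9 and 17.6 CPM and at 68.5, 98.4 and 81.1 CPM (2.24, adjusted p = 0.00111). CTSS was at 1.67, 2.18 and 2.73 CPM and at 6.91, 16.7 and 6.44 CPM (2.19, adjusted p = 0.00843). In none of these 3 genes did the groups overlap. Of 11 further V-ATPase genes, 3 rose (27.3%) and none fell, with a median of 0.69, against 0.04 for the 5 V-ATPase genes above. The 3 were ATP6V1D, ATP6V1E1 and ATP6V1G1, chosen after their values were seen. Of 13 further tested genes of initiation and the lipid kinase, 4 rose (30.8%) and none fell, with a median of 0.08, against 1.02 and 0.69 above. Of 16 further lysosomal membrane genes, 4 rose (25%) and 1 fell (6.25%), with a median of 0.41, against 1.10 above. Of 12 fusion genes, 1 rose (8.33%, against 15.7% of all tested genes) and none fell. It was VPS39, a subunit of the HOPS tether (2.04, edgeR adjusted p = 0.00543). VPS39 went from 16.7, 13.3 and 29 CPM to 63.6, 64.5 and 113 CPM. None of the 6 genes that sort enzymes to the lysosome passed.

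Of 27 genes that control autophagy through mTORC1 and AMPK, 4 were higher (14.8%, against 15.7% of all tested genes) and 4 lower (14.8%, against 12.9%), shares near the background, with a median log2 fold change of 0.07. The 4 that rose were DEPTOR, an mTOR-binding inhibitor (1.61, edgeR adjusted p = 0.0271), the AMPK subunit gene PRKAB2 (1.65, adjusted p = 0.0118) and the Rag GTPase genes RRAGA (0.98, adjusted p = 0.0297) and RRAGD (1.04, adjusted p = 0.0447). Another AMPK subunit gene, PRKAG1, fell by 1.06 (adjusted p = 0.0258). These 5, named after their values were seen, each lost the call without control replicate 3 and in other alternatives, with adjusted p reaching from 0.0623 (PRKAB2) to 0.147 (RRAGD). RPTOR, the subunit of mTORC1 that binds its substrates, was at 145, 87.4 and 105 CPM in control and at 34.6, 18.2 and 31.5 CPM in CYT, and fell by 2.0 on the log2 scale (edgeR adjusted p = 0.00360). MLST8, another subunit, fell by 1.73 (adjusted p = 0.0245), and its call was lost without control replicate 1, control replicate 3 or CYT replicate 3, with adjusted p up to 0.0910. LAMTOR1, which anchors the Ragulator complex to the lysosome, fell by 1.44 (adjusted p = 0.00935). TPCN2, a lysosomal ion channel gene, was at 45.1, 45.9 and 34.4 CPM in control and at 9.52, 6.69 and 8.98 CPM in CYT, and fell by 2.32 (adjusted p = 0.00127). MTOR itself was at 40.8 to 63.1 CPM in control and at 48.7 to 61.0 CPM in CYT, with a log2 fold change of 0.16 (adjusted p = 0.718), and was chosen after its values were seen.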
